A study of Sus scrofa with 60 samples.

Results

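Branched-chain amino acid breakdown in the liver of neonatal pigs was followed through 10 genes of 30335 named genes in an RNA-seq count table. The genes were chosen by name, as BCAT1, BCAT2, BCKDHA, BCKDHB, DBT, BCKDK, PPM1K, IVD, ACADSB, and HIBADH, and each was found on a single row of the table. All 10 passed the filter on low counts that left 16210 genes for testing. Leucine, isoleucine, and valine are first stripped of their amino group by a transaminase, and the resulting keto acids are then committed to oxidation by the mitochondrial branched-chain keto acid dehydrogenase (BCKDH) complex, which a dedicated kinase switches off and a dedicated phosphatase switches on. After that step the 3 carbon skeletons follow separate routes. The liver of most mammals has little transaminase activity and much BCKDH activity, so it is known mainly as a place where keto acids released by muscle are oxidized.

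The 60 liver libraries came from piglets of Landrace and Hampshire mixed sows, delivered by cesarean section 1 day before term. On day 1 each pig had either bile duct ligation (BDL), in which the cystic and common bile ducts were tied, or a sham operation in which the abdomen was opened and the liver handled, and every pig received a jugular catheter and total parenteral nutrition for the first day. At matched calories, pigs were then moved stepwise to a milk replacer formula given enterally (ENT) or stayed on parenteral nutrition (PN) with no enteral feed, its lipid being either a soybean oil emulsion (SLE, labelled IL) or an emulsion of mixed oils (MLE, labelled SL). Livers were taken on day 14, which gave 12 sham and 10 BDL libraries with ENT, 10 and 11 with SLE, and 9 and 8 with MLE. As a model of biliary disease, ligation stops bile flow at once, and no pig was unoperated. Counts on named genes ranged from 14469788 to 21374161 per library, with a median of 17254606.

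A pair of ENT libraries stood apart. ENT-sham replicate 2 and ENT-BDL replicate 1 were the closest of all 1770 pairs of libraries, with a chi-square per degree of freedom of 1.91 over genes with at least 20 counts in the pair, against 16.1 for the next closest pair and a median of 53.4 over the 275 pairs within a group. ENT-sham replicate 2 exceeded the other 11 ENT-sham libraries in the bile duct cell marker KRT7 (27.9 CPM, the counts scaled to library size), and in BCAT1 (38.5 CPM) and ACADSB (483 CPM), and it was the lowest of the 12 in BCKDHA, BCKDHB, DBT, BCKDK, IVD, and HIBADH. It also exceeded those 11 in SOX9 (37.9 CPM) and SPP1 (71.5 CPM), which are bile duct cell markers too. Of the 10 ENT-BDL libraries, it lay above 9 in KRT7, 10 in SOX9, and 3 in SPP1. In these markers it thus stood among or above the ENT-BDL libraries. Whether a library was mislabelled or sequenced under both labels cannot be told from the counts. Both libraries were kept under their labels and entered the fit as separate pigs. Each called ENT difference of the 10 genes is given with and without them. A single pig identifier is given for both replicates 9 and 10 of SLE-sham. At 34.2 by the same measure these libraries were farther apart than the next closest pair but closer than the within-group median. Whether they came from different pigs is not known, and both were counted as separate libraries. Titles also hold an identifier number with 8 values, whose meaning the labels do not give and of which MLE pigs have only 4. Libraries of different groups that shared this number deviated together from their group means (median r of 0.13 over 177 pairs, against -0.02 over the other 1318 pairs), so values from a fit that blocks on this number (identifier block) are given where they change a call among the 10 genes.

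The liver identity of the libraries was checked with marker genes. The summed level of 7 hepatocyte markers, of which ALB was the most abundant, ranged from 40240 CPM in an MLE-BDL library to 112242 CPM in an ENT-sham library, and none of them was at 0 throughout. The 4 skeletal muscle markers summed to at most 5.11 CPM in any library, with MYL1 at 0 in all 60. Muscle is the other tissue in which this pathway is prominent.

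Per kilobase of the deposited gene length, the scale used here for any comparison between genes, the pathway was uneven. IVD had the highest median over the 60 libraries (121 CPM per kb), followed by HIBADH (80 CPM per kb) and ACADSB (61.1 CPM per kb). The BCKDH subunits followed, with BCKDHA at 38.8 and BCKDHB at 36.9 CPM per kb and DBT lower at 12.3, and the kinase BCKDK had a median of 28.8 CPM per kb. The transaminases and the phosphatase were lowest, with medians of 5.46 CPM per kb for BCAT2, 2.37 for BCAT1, and 2.26 for PPM1K. Neighbors in this order overlapped widely over the 60 libraries: IVD (56.8 to 250 CPM per kb), HIBADH (37.1 to 113), and ACADSB (38.8 to 102) did so, as did BCKDHA (28.8 to 56.4) and BCKDHB (20.5 to 65), and BCAT2 (3.1 to 9.54), BCAT1 (1.24 to 5.53), and PPM1K (1.39 to 4.93). The gene model of IVD has only 1281 bases, and those of BCAT1 and PPM1K have 10702 and 9464, so the order depends on how completely untranslated regions are annotated.

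The comparison of BDL with sham within each diet asks how bile duct obstruction changed these transcripts. A gene was called at a Benjamini-Hochberg adjusted p under 0.05 over all 16210 genes in edgeR's quasi-likelihood test, whatever its fold change. With enteral feeding, 2 of the 10 genes were higher after BDL (BCAT1 and ACADSB), where 8.78% of all genes tested were higher, and 4 were lower (BCKDHB, DBT, IVD, and HIBADH), where 8.66% of all genes were lower. With MLE, 1 was higher (BCAT1), against 7.23% of all genes, and 4 were lower (BCAT2, BCKDHB, DBT, and IVD), against 7.2%. With SLE, 0 of 10 were called in edgeR, against 2.86% of all genes higher and 1.68% lower, 6 had an unadjusted p under 0.05, and DESeq2 also called 0. Without both near-identical ENT libraries the ENT counts were again 2 higher and 4 lower. The TMM normalization factors themselves differed between sham and BDL pigs on ENT and on MLE, with medians of 0.942 in ENT-sham and 1.05 in ENT-BDL, 0.994 and 0.999 with SLE, and 0.951 and 1.11 with MLE. In a fit on plain library totals, an alternative added after seeing the data, 2 of the 10 genes were higher and 3 lower with ENT, 0 were called with SLE, and 2 were higher (BCAT1 and ACADSB) and 1 lower (BCKDHB) with MLE. With MLE, BCAT2, BCKDHB, DBT, and IVD went from -0.41, -0.55, -0.36, and -0.56 to -0.18, -0.31, -0.13, and -0.33 on the log2 scale. The sizes of the lower values after BDL thus depended in part on the normalization. Plain-total values are given where they change a call among the 10 genes. The shares of all genes are those of the fit with TMM on all libraries. None was taken without the pair or on plain totals, so counts from those fits have no such share beside them. In edgeR with TMM on all libraries, the largest difference of the 10 genes in any comparison was 0.84 on the log2 scale, for BCAT1 with MLE, and on plain totals the same difference was 1.06, above 2-fold.

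The comparisons of diets ask how the feeding route and the lipid source bore on the same genes. Among sham pigs, SLE against ENT had 1 gene higher (BCAT2; 13.7% of all genes) and 1 lower (DBT; 13.8% of all genes), and MLE against ENT had 3 higher (BCAT2, PPM1K, and IVD; 10.7% of all genes) and 0 lower (10.4% of all genes). Between the lipid emulsions, edgeR called 0 of 10 genes in sham pigs, against 0.364% of all genes higher and 0.58% lower; 2 had an unadjusted p under 0.05, and DESeq2 called 0. Among BDL pigs, SLE against ENT had 0 calls in edgeR, against 9.88% of all genes higher and 9.45% lower; 1 gene had an unadjusted p under 0.05, and DESeq2 called 0. MLE-BDL exceeded ENT-BDL in 2 genes (BCAT1 and IVD; 7.59% of all genes) and fell below it in 1 (ACADSB; 8.86% of all genes). MLE-BDL against SLE-BDL had 0 calls in edgeR, against 0.191% of all genes higher and 0.759% lower; 1 gene had an unadjusted p under 0.05, and DESeq2 called 0. Comparisons that share a group share its libraries and are not independent of each other.

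**Figure D1:**
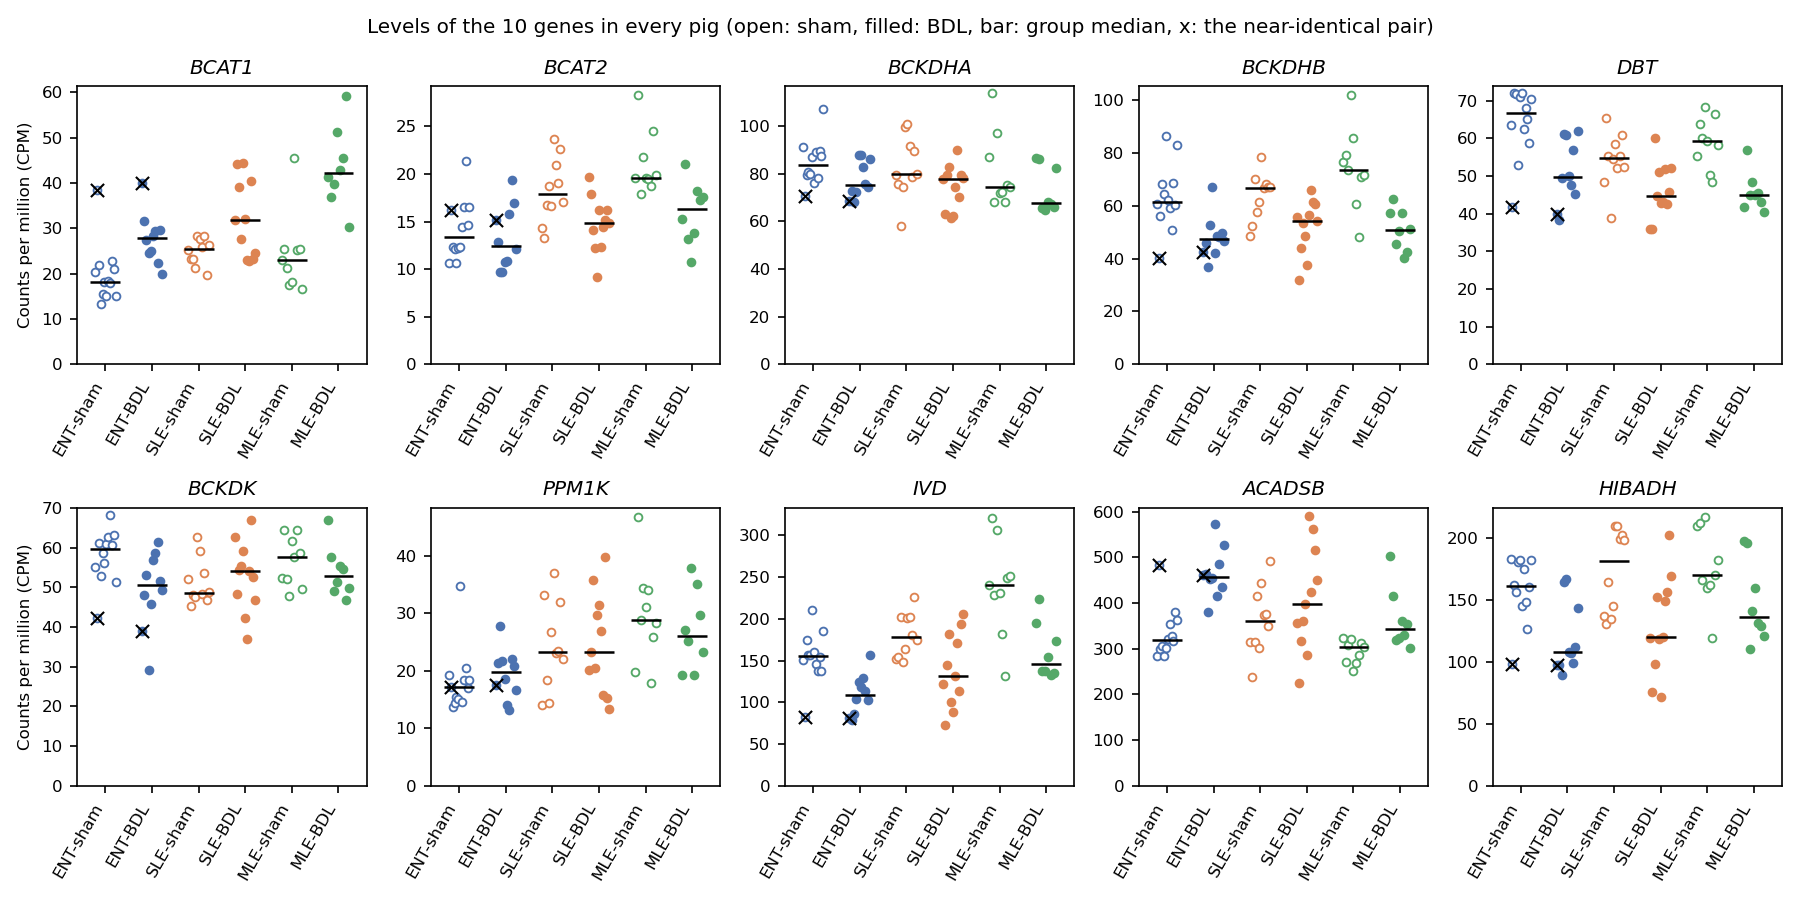
Level of each of the 10 genes in CPM (vertical axis, from 0) in every library of the 6 groups (horizontal axis). Open circles are sham pigs, filled circles BDL pigs, black bars group medians, and crosses ENT-sham replicate 2 and ENT-BDL replicate 1; BCAT1 medians ran from 18.2 CPM in ENT-sham to 42.1 CPM in MLE-BDL.

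BCAT1 encodes the cytosolic branched-chain aminotransferase, which is usually low in adult liver, and lies at chr5:48814212-48925632 on the plus strand of Sscrofa11.1 (gene ID 100518784). Its level in ENT-sham pigs ran from 13.2 to 38.5 CPM with a median of 18.2, and in ENT-BDL pigs from 19.9 to 39.9 CPM with a median of 27.8. The highest value of each group belonged to the near-identical pair, and without the pair ENT-sham pigs ended at 22.8 CPM and ENT-BDL pigs at 31.5 CPM. All 10 ENT-BDL libraries lay above the ENT-sham median, although the groups overlapped. The log2 fold change was 0.49 ± 0.15 (SE; adjusted p = 0.0155), and 0.54 ± 0.14 without the pair (adjusted p = 0.00251).

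With MLE, BCAT1 ran from 16.7 to 45.6 CPM in sham pigs with a median of 23, and from 30.3 to 59.1 CPM in BDL pigs with a median of 42.1. A single sham library, MLE-sham replicate 6 at 45.6 CPM, overlapped with the BDL pigs; the other 8 lay below the lowest of them. The log2 fold change was 0.84 ± 0.17 (adjusted p = 0.000269). With SLE, the sham range of 19.6 to 28.3 CPM (median, 25.5) lay beside a BDL range of 22.7 to 44.4 CPM (median, 31.8), and 6 of 11 BDL pigs exceeded every sham pig. The SLE difference of 0.37 ± 0.15 was not called (adjusted p = 0.159). Its response was not shown to differ from the others: the MLE response minus the SLE response was 0.47 ± 0.22 (adjusted p = 0.485), the MLE minus the ENT response was 0.35 ± 0.22 (adjusted p = 0.689), and the SLE minus the ENT response was -0.12 ± 0.21 (adjusted p = 0.863).

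Between diets, BCAT1 was called only for MLE against ENT in BDL pigs, and the groups overlapped. In BDL pigs MLE exceeded ENT by 0.64 ± 0.16 (adjusted p = 0.00331), with all 8 MLE-BDL libraries above the ENT-BDL median, and this difference was 0.78 with the identifier block and 0.72 without the near-identical pair. SLE-BDL differed from ENT-BDL by 0.21 ± 0.15 (adjusted p = 0.355), which became a call with the identifier block (0.39, adjusted p = 0.0191). MLE-BDL differed from SLE-BDL by 0.43 ± 0.16, which was not called (adjusted p = 0.176). In sham pigs the differences from ENT were 0.33 ± 0.15 with SLE (adjusted p = 0.0948) and 0.29 ± 0.15 with MLE (adjusted p = 0.172). These depended on single libraries. Without both near-identical libraries they were 0.46 (adjusted p = 0.00695) and 0.42 (adjusted p = 0.0216), without ENT-sham replicate 2 alone they were 0.46 (adjusted p = 0.00841) and 0.42 (adjusted p = 0.0252), and with the identifier block they were 0.53 (adjusted p = 0.00158) and 0.44 (adjusted p = 0.0372). Without MLE-sham replicate 6 the MLE difference was 0.12 (adjusted p = 0.606).

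BCAT2 encodes the mitochondrial aminotransferase, the main form in muscle and most other tissues, at chr6:54107682-54123595 on the minus strand (gene ID 396841). The gene LOC106510565 overlaps it on the plus strand, with a mean of 110.9 counts per library against 279.9 for BCAT2; whether the counting used strand is not stated, so reads of the overlap may have gone to either gene. Its sham medians were higher on PN than on ENT: ENT-sham pigs ran from 10.6 to 21.4 CPM (median, 13.4), SLE-sham pigs from 13.3 to 23.7 CPM (median, 17.9), and MLE-sham pigs from 17.9 to 28.3 CPM (median, 19.6). All 9 MLE-sham libraries lay above the ENT-sham median and 3 above its highest pig, while 9 of 10 SLE-sham libraries lay above that median. The log2 differences from ENT-sham were 0.58 ± 0.13 with MLE (adjusted p = 0.000519) and 0.37 ± 0.12 with SLE (adjusted p = 0.0188). Both calls were lost with the identifier block, at 0.36 (adjusted p = 0.0619) and 0.22 (adjusted p = 0.178), and the SLE call was lost without SLE-sham replicate 6 (0.32, adjusted p = 0.05). Without the near-identical pair the differences were 0.59 and 0.39.

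After BDL, BCAT2 ran from 10.7 to 21.1 CPM in MLE-BDL pigs (median, 16.3), from 9.2 to 19.7 CPM in SLE-BDL pigs (median, 14.8), and from 9.7 to 19.4 CPM in ENT-BDL pigs (median, 12.4). In MLE pigs 6 of 8 BDL libraries lay below every sham library, and the log2 fold change was -0.41 ± 0.14 (adjusted p = 0.0409). That call was narrow: it was lost in 10 of 17 fits that left out 1 library (-0.41 to -0.33, adjusted p from 0.0512 to 0.119), those without MLE-sham replicates 2, 4, 5, 8, and 9 and MLE-BDL replicates 1, 3, 4, 5, and 7. It was also lost with no filter on low counts (adjusted p = 0.0552) and on plain totals (-0.18, adjusted p = 0.398), and over the other alternatives the adjusted p was as low as 0.0117. The difference was -0.31 ± 0.13 with SLE (adjusted p = 0.153) and -0.09 ± 0.12 with ENT (adjusted p = 0.699). Neither PN-BDL group was called against ENT-BDL, at 0.26 ± 0.14 with MLE (adjusted p = 0.205) and 0.15 ± 0.13 with SLE (adjusted p = 0.454).

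Per kilobase of the deposited gene models (10702 bases for BCAT1 and 2964 for BCAT2) and within a library, BCAT1 had a geometric mean of 0.38 of BCAT2 in ENT-sham, 0.38 in SLE-sham, and 0.307 in MLE-sham pigs. Which of the pair was more abundant depends on these lengths, since without them BCAT1 had the higher median (18.2 against 13.4 CPM in ENT-sham pigs). The ratio was 0.584 in ENT-BDL, 0.594 in SLE-BDL, and 0.756 in MLE-BDL pigs, and without the near-identical pair it was 0.362 in ENT-sham and 0.57 in ENT-BDL pigs. On the log2 scale this ratio ran from -2.17 to -0.63 in MLE-sham pigs and from -1.07 to 0.40 in MLE-BDL pigs, so the groups overlapped. The ratio was described only, with no test.

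The BCKDH complex is built from the E1 alpha and E1 beta subunits, which decarboxylate the keto acids, the E2 core that passes the acyl group to coenzyme A, and an E3 subunit shared with other dehydrogenases. BCKDHA encodes E1 alpha (chr6:49381995-49398745, plus strand, gene ID 100142666), and its group means differed the least of the 10 genes, the highest being 1.15 times the lowest (1.17 times for BCKDK). Its group medians lay between 67.7 CPM in MLE-BDL and 83.8 CPM in ENT-sham pigs. BDL differed from sham by -0.12 ± 0.08 with ENT (adjusted p = 0.333), -0.15 ± 0.09 with SLE (adjusted p = 0.342), and -0.14 ± 0.10 with MLE (adjusted p = 0.347). The 95% intervals reached down to -0.29, -0.32, and -0.33.

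BCKDHB, for E1 beta (chr1:85755819-86017661, minus strand, gene ID 100142669), was lower after BDL. It ran from 40.4 to 86.4 CPM in ENT-sham pigs (median, 61.5) and from 37 to 67.3 CPM in ENT-BDL pigs (median, 47.5), and from 48.4 to 102 CPM in MLE-sham pigs (median, 73.8) and from 40.3 to 62.6 CPM in MLE-BDL pigs (median, 50.8). In both diets the groups overlapped, with 9 of 10 ENT-BDL and 8 of 8 MLE-BDL libraries below the sham median. BCKDHB fell by 0.40 ± 0.11 with ENT (adjusted p = 0.0086; -0.43 without the near-identical pair, adjusted p = 0.00353) and by 0.55 ± 0.13 with MLE (adjusted p = 0.00164) on the log2 scale. On plain totals both were called at smaller sizes, -0.29 (adjusted p = 0.0307) and -0.31 (adjusted p = 0.0262). With SLE all 11 BDL libraries, from 32.1 to 66 CPM (median, 54.2), lay below the sham median of 66.9 CPM, yet the difference of -0.30 ± 0.11 was not called (adjusted p = 0.119).

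DBT encodes the E2 core (chr4:117884657-117924006, plus strand, gene ID 100156530). Its range was 41.8 to 72.1 CPM in ENT-sham pigs (median, 66.7) and 38.3 to 61.9 CPM in ENT-BDL pigs (median, 49.7), and all 10 BDL libraries lay below the sham median. The lowest sham value, 41.8 CPM, was that of ENT-sham replicate 2, and the other 11 began at 53 CPM. DBT fell by 0.33 ± 0.09 with ENT (adjusted p = 0.00735; -0.34 without the pair, adjusted p = 0.00257). With MLE the median was 59.3 CPM in sham and 45 CPM in BDL pigs, 6 of 8 BDL libraries lay below every sham library, and the decrease was by 0.36 ± 0.10 (adjusted p = 0.0102). On plain totals it was -0.13 with MLE and not called (adjusted p = 0.241), and -0.22 with ENT (adjusted p = 0.0332). With SLE the difference was -0.24 ± 0.09 (adjusted p = 0.125), with medians of 54.9 and 44.6 CPM and 10 of 11 BDL libraries below the sham median.

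DBT was also the only 1 of the 10 genes called lower on PN in sham pigs. All 10 SLE-sham libraries lay below the ENT-sham median, and the difference was -0.24 ± 0.09 (adjusted p = 0.036). It was -0.29 without the near-identical pair (adjusted p = 0.00623) and -0.30 with the identifier block (adjusted p = 0.00944), but was lost in 10 of 22 fits that left out 1 library (-0.24 to -0.20, adjusted p from 0.051 to 0.0969). Those were the fits without ENT-sham replicates 3, 4, 6, 7, 9, and 12 and SLE-sham replicates 1, 4, 7, and 10. SLE-sham replicate 10 carries the same pig identifier as SLE-sham replicate 9. Over the other alternatives the adjusted p ran from 0.00623 to 0.0785. MLE-sham differed from ENT-sham by -0.12 ± 0.09 (adjusted p = 0.369). In BDL pigs the differences from ENT were -0.15 ± 0.09 with SLE (adjusted p = 0.242; -0.24 and called with the identifier block, adjusted p = 0.0331) and -0.16 ± 0.10 with MLE (adjusted p = 0.295).

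Because BCKDHB moved and BCKDHA was not called, the ratio of E1 alpha to E1 beta per kilobase was described within each library. Its geometric mean was 1.05 in ENT-sham and 1.26 in ENT-BDL pigs, 1 in SLE-sham and 1.13 in SLE-BDL pigs, and 0.846 in MLE-sham and 1.12 in MLE-BDL pigs. Without the near-identical pair the ENT values were 1.02 and 1.26. The log2 ratio ran from -0.62 to 0.16 in MLE-sham and from -0.12 to 0.37 in MLE-BDL pigs, which overlapped. No test was run on this ratio.

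BCKDK, the kinase that phosphorylates E1 alpha and switches the complex off (chr3:17375628-17380925, minus strand, gene ID 100522544), was called in no comparison. Its sham and BDL medians were 59.7 and 50.5 CPM with ENT, 48.6 and 54.1 CPM with SLE, and 57.7 and 53 CPM with MLE, with single libraries between 29.1 and 68.2 CPM. The nearest to a call was ENT-BDL against ENT-sham, at -0.23 ± 0.09 (adjusted p = 0.0694). This was -0.23 without both near-identical libraries (adjusted p = 0.0527), and was called with the identifier block (-0.26, adjusted p = 0.02) and without ENT-sham replicate 2, ENT-BDL replicate 7, or ENT-BDL replicate 8 (-0.27 to -0.26, adjusted p from 0.0214 to 0.0432). The BDL difference was 0.04 ± 0.09 with SLE (adjusted p = 0.875) and -0.07 ± 0.10 with MLE (adjusted p = 0.724). SLE-sham differed from ENT-sham by -0.17 ± 0.09 (adjusted p = 0.153; -0.25 with the identifier block, adjusted p = 0.0319).

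PPM1K, the mitochondrial phosphatase that reactivates the complex (chr8:130748207-130772936, plus strand, gene ID 110262190), was called only for MLE against ENT in sham pigs. In ENT-sham pigs it ran from 13.6 to 34.8 CPM (median, 17.1), in SLE-sham pigs from 14 to 36.9 CPM (median, 23.3), and in MLE-sham pigs from 17.8 to 46.7 CPM (median, 28.8). All 9 MLE-sham libraries lay above the ENT-sham median, and 7 of 12 ENT-sham libraries lay below the lowest MLE-sham library. MLE-sham exceeded ENT-sham by 0.70 ± 0.18 (adjusted p = 0.00279; 0.62 with the identifier block, adjusted p = 0.0464; 0.69 without the near-identical pair, adjusted p = 0.0048). SLE-sham differed from ENT-sham by 0.42 ± 0.18 (adjusted p = 0.0635), which was called without ENT-sham replicate 7 or SLE-sham replicates 1, 3, or 4 (0.47 to 0.55, adjusted p from 0.011 to 0.0468) and on plain totals (0.46, adjusted p = 0.0455).

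After BDL, PPM1K had medians of 19.8 CPM in ENT, 23.2 in SLE, and 26 CPM in MLE pigs. The difference from ENT-BDL was 0.48 ± 0.19 with MLE (adjusted p = 0.0755) and 0.35 ± 0.18 with SLE (adjusted p = 0.163), and the MLE difference was called without ENT-BDL replicate 3, MLE-BDL replicate 1, or MLE-BDL replicate 5 (0.55 to 0.56, adjusted p from 0.0449 to 0.0483), with only the groups compared (adjusted p = 0.0296), and on plain totals (0.57, adjusted p = 0.0307). BDL itself went with no called difference, at 0.09 ± 0.18 with ENT (adjusted p = 0.788), 0.02 ± 0.18 with SLE (adjusted p = 0.975), and -0.13 ± 0.20 with MLE (adjusted p = 0.721). The spread between pigs was wide for this gene, so intervals such as -0.33 to 0.37 with SLE allow a change of moderate size in either direction.

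Per kilobase, kinase transcripts outnumbered phosphatase transcripts in every library. The geometric mean ratio of BCKDK to PPM1K was 16.6 in sham and 13 in BDL pigs with ENT, 11.2 and 11.4 with SLE, and 10.1 and 10.4 with MLE. Its size depends on the deposited gene models (1853 bases for BCKDK and 9464 for PPM1K). Without these lengths the ENT-sham medians were 59.7 CPM for BCKDK and 17.1 CPM for PPM1K. The log2 ratio was 3.17 to 4.53 in ENT-sham and 2.82 to 4.21 in MLE-sham pigs, so single pigs of these groups overlapped. Without both near-identical libraries the ENT ratios were 17.1 and 13.2.

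**Figure D2:**
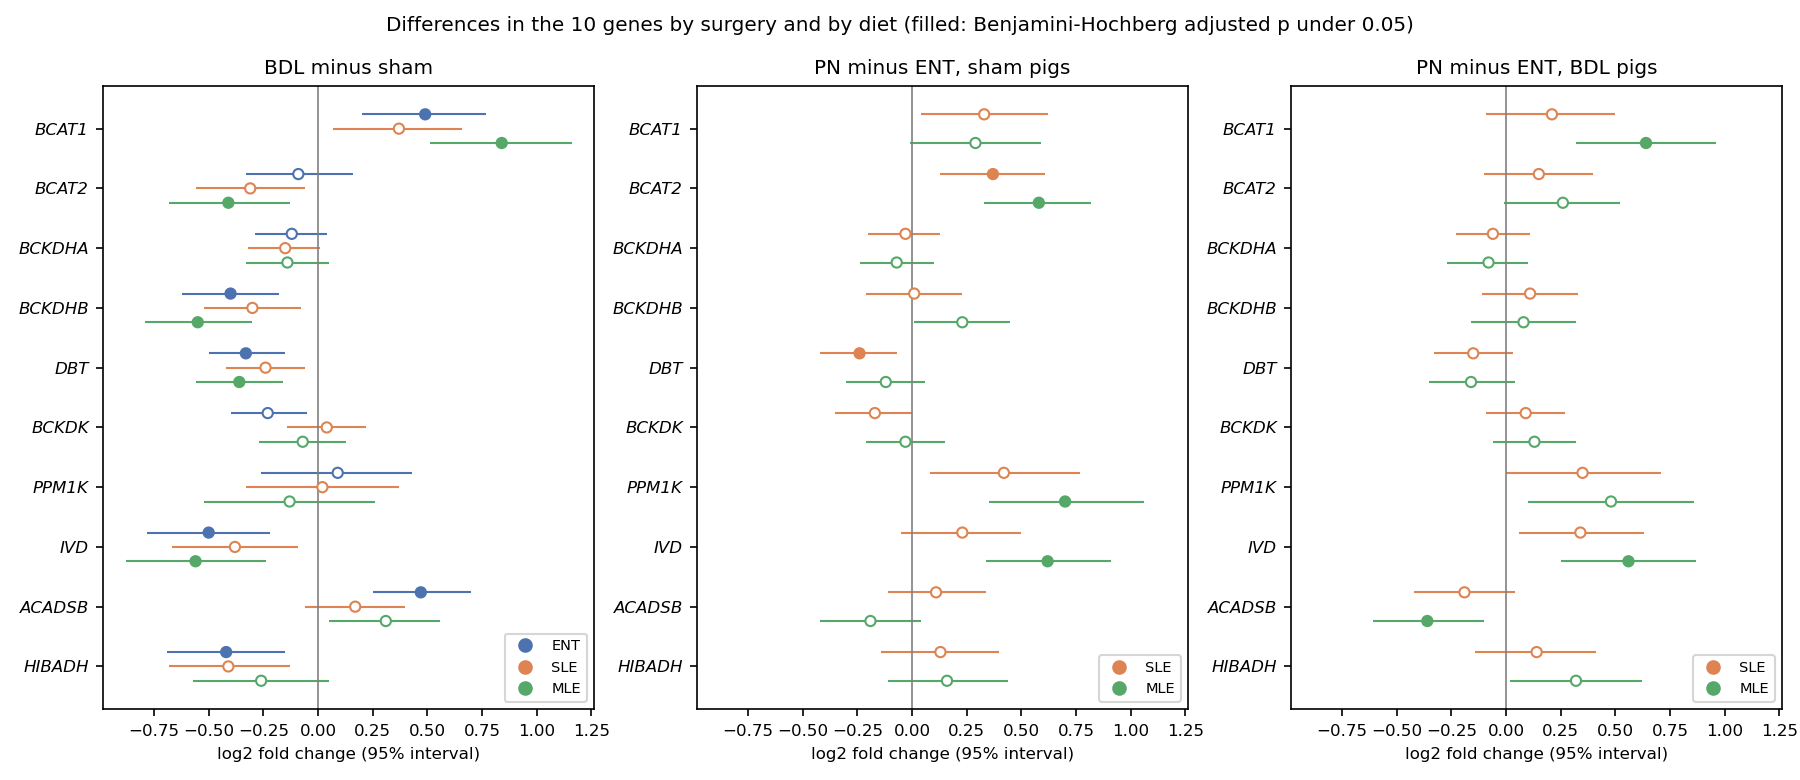
Log2 fold changes (horizontal axis) of the 10 genes (vertical axis) with their 95% intervals, for BDL against sham in each diet and for each PN diet against ENT in sham and in BDL pigs. Filled points have an adjusted p under 0.05; BCAT1 after BDL with MLE, at 0.84, is the largest.

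Below the BCKDH complex, IVD oxidizes isovaleryl-CoA in the leucine route (chr1:130896488-130910582, minus strand, gene ID 100156047). It ran from 81.9 to 211 CPM in ENT-sham pigs (median, 155) and from 78.8 to 157 CPM in ENT-BDL pigs (median, 108), from 148 to 226 CPM in SLE-sham pigs (median, 178) and from 72.7 to 206 CPM in SLE-BDL pigs (median, 132), and from 132 to 321 CPM in MLE-sham pigs (median, 241) and from 133 to 224 CPM in MLE-BDL pigs (median, 146). Each BDL group thus had a lower median than its sham group, with overlapping ranges. IVD fell by 0.50 ± 0.14 with ENT (adjusted p = 0.0108; -0.52 without the near-identical pair, adjusted p = 0.00529) and by 0.56 ± 0.16 with MLE (adjusted p = 0.0128). On plain totals these were -0.39 (adjusted p = 0.0285) and -0.33, the latter not called (adjusted p = 0.0753). With SLE 7 of 11 BDL libraries lay below every sham library, but the difference of -0.38 ± 0.15 was not called (adjusted p = 0.125).

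IVD was also higher with MLE than with ENT. In sham pigs 7 of 9 MLE libraries exceeded every ENT library, with a difference of 0.62 ± 0.15 (adjusted p = 0.00111), and in BDL pigs all 8 MLE libraries exceeded the ENT median, with a difference of 0.56 ± 0.16 (adjusted p = 0.00918). Both calls were lost with the identifier block, at 0.38 (adjusted p = 0.0862) in sham and 0.38 (adjusted p = 0.102) in BDL pigs. Without the near-identical pair they were 0.56 (adjusted p = 0.00244) and 0.53 (adjusted p = 0.0109). SLE differed from ENT by 0.23 ± 0.14 in sham (adjusted p = 0.253) and 0.34 ± 0.15 in BDL pigs (adjusted p = 0.0895), the latter called without ENT-BDL replicate 10, SLE-BDL replicate 2, or SLE-BDL replicate 6 (0.40 to 0.42, adjusted p from 0.0307 to 0.0485). MLE-sham differed from SLE-sham by 0.40 ± 0.15, which was not called (adjusted p = 0.243).

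ACADSB, the short/branched-chain acyl-CoA dehydrogenase of the isoleucine route (chr14:132563002-132607574, plus strand, gene ID 100154810), went the other way. IKZF5 overlaps it on the opposite strand, with a mean of 427.1 counts against 6514.4 for ACADSB. ACADSB ran from 285 to 483 CPM in ENT-sham pigs (median, 319) and from 381 to 573 CPM in ENT-BDL pigs (median, 458). The sham value of 483 CPM was that of ENT-sham replicate 2. Without the near-identical pair the ranges met edge to edge (285 to 380 against 381 to 573 CPM). How many of all genes were apart in this way was not counted. ACADSB rose by 0.47 ± 0.11 (adjusted p = 0.00223), or 0.53 ± 0.12 without the pair (adjusted p = 0.000515).

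On PN the ACADSB difference was not called, at 0.31 ± 0.13 with MLE (adjusted p = 0.106) and 0.17 ± 0.12 with SLE (adjusted p = 0.46). The MLE difference was called with only the groups compared (adjusted p = 0.0244) and on plain totals (0.53, adjusted p = 0.00297). Medians were 303 CPM in MLE-sham and 343 CPM in MLE-BDL pigs, where 5 of 8 BDL libraries exceeded every sham library, and 361 CPM in SLE-sham and 399 CPM in SLE-BDL pigs. The SLE response was not shown to differ from the ENT response (-0.30 ± 0.16, adjusted p = 0.401). MLE-BDL was below ENT-BDL by -0.36 ± 0.13 (adjusted p = 0.0464), a call lost in 14 of 18 fits that left out 1 library (-0.36 to -0.30, adjusted p from 0.0519 to 0.108), those without ENT-BDL replicates 1, 2, 4, 5, 6, 8, 9, and 10 and MLE-BDL replicates 3, 4, 5, 6, 7, and 8. With the identifier block it was -0.54 (adjusted p = 0.00381), and without the near-identical pair -0.35 (adjusted p = 0.0491). On plain totals it was -0.27 and not called (adjusted p = 0.158), the highest adjusted p of the alternatives. SLE-BDL differed from ENT-BDL by -0.19 ± 0.12 (adjusted p = 0.268). In sham pigs MLE differed from ENT by -0.19 ± 0.12 (adjusted p = 0.273; -0.43 with the identifier block, adjusted p = 0.0161) and from SLE by -0.30 ± 0.12 (adjusted p = 0.295).

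HIBADH oxidizes 3-hydroxyisobutyrate in the valine route (chr18:44985410-45102171, plus strand, gene ID 100516656). Its range was 98.1 to 183 CPM in ENT-sham pigs (median, 161) and 89.2 to 167 CPM in ENT-BDL pigs (median, 108), with 8 of 10 BDL libraries below the sham median. The log2 fold change was -0.42 ± 0.14 (adjusted p = 0.0278; -0.44 without the near-identical pair, adjusted p = 0.0181). The call was lost in 6 of 22 fits that left out 1 library (-0.39 to -0.38, adjusted p from 0.0508 to 0.0578), those without ENT-sham replicates 6 and 12 and ENT-BDL replicates 1, 2, 3, and 8, and on plain totals (-0.31, adjusted p = 0.0658). With SLE the median was 181 CPM in sham and 120 CPM in BDL pigs and 10 of 11 BDL libraries lay below the sham median, but -0.41 ± 0.14 was not called (adjusted p = 0.0815). It was called without SLE-BDL replicate 10 or 11 (-0.49 to -0.45, adjusted p from 0.0269 to 0.0491). With MLE the difference was -0.26 ± 0.16 (adjusted p = 0.278), with medians of 170 and 136 CPM. MLE-BDL differed from ENT-BDL by 0.32 ± 0.15 (adjusted p = 0.143), by 0.08 with the identifier block (adjusted p = 0.819), and by 0.42 on plain totals, where it was called (adjusted p = 0.0253).

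Whether the response to BDL depended on diet was tested directly as a difference of differences. In edgeR 0 of the 10 genes were called for SLE minus ENT, where 2.28% of all genes were called, 0 for MLE minus ENT (0.0802%), and 0 for MLE minus SLE (0.278%). The genes with an unadjusted p under 0.05 numbered 1, 0, and 1, and DESeq2 called 0 in each. The first was BCKDK for SLE minus ENT (0.27 ± 0.13, adjusted p = 0.307), and the other was BCAT1 for MLE minus SLE. The absence of calls with SLE alone is therefore not shown to be a different response.

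The 10 genes varied together in part. After group means were subtracted from log2 CPM, the Pearson r over the 60 libraries had a median of 0.08 among the 45 pairs of genes and exceeded 0.5 in 7. The strongest were BCKDHB with HIBADH (r = 0.78, Spearman rho = 0.74), IVD with HIBADH (r = 0.77, rho = 0.70), and BCKDHB with IVD (r = 0.75, rho = 0.67), genes of different steps. BCAT1 ran against them, most with IVD (r = -0.61, rho = -0.54) and BCKDHB (r = -0.50, rho = -0.43). The kinase and phosphatase showed no such relation with each other (BCKDK with PPM1K, r = 0.00, rho = 0.03). Without the 2 libraries farthest from the median of the first gene named, the 3 strongest pairs above were at 0.73, 0.72, and 0.68. BCKDHA with IVD, at 0.66 over the 60 libraries, was then at 0.72, and BCAT1 with IVD was at -0.55. The points share library preparation and depth, and no test was run.

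Genes whose log2 CPM followed each member most closely over the 60 libraries, groups included, were named by the highest r. For IVD they were PCK2 (r = 0.89), the mitochondrial form of phosphoenolpyruvate carboxykinase, and ALDH6A1 (r = 0.88), an enzyme of valine breakdown. BCKDHB was closest to GAMT (r = 0.87), which makes creatine, and to PCK2 (r = 0.84), and HIBADH was closest to PCK2 (r = 0.83) and to BCKDHB itself (r = 0.83). DBT was nearest to VNN3 (r = 0.84) and CLPX (r = 0.82), and BCKDHA to ACADS (r = 0.73), a short-chain acyl-CoA dehydrogenase, and ORMDL3 (r = 0.68). ACADSB had PTPRU (r = 0.79) and CYP3A22 (r = 0.77), BCAT1 had ARHGEF2 (r = 0.78) and MYO5A (r = 0.77), and BCKDK had FBXL6 (r = 0.72) and CSNK2B (r = 0.71). Weaker neighbors were found for PPM1K, with WDR37 (r = 0.64) and IGSF8 (r = 0.61), and for BCAT2, with SLC25A23 (r = 0.62) and ZNF219 (r = 0.61). These are descriptions over samples that share diet and surgery.

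Around these members, 25 of 26 listed genes of amino acid transport and of the later steps were tested. With ENT, 1 rose after BDL (8.78% of all genes) and 9 fell (8.66% of all genes). The counts were 1 and 10 without the near-identical pair, 1 and 13 with the identifier block, and 1 and 2 on plain totals. Not all of the falls named next therefore kept their call on plain totals. MCEE, the epimerase that acts on methylmalonyl-CoA, rose by 0.52 ± 0.15 (adjusted p = 0.0137). PCCA, a subunit of propionyl-CoA carboxylase, fell by 0.53 ± 0.16 (adjusted p = 0.016), KLF15, a transcription factor known to induce genes of this pathway, by 0.46 ± 0.14 (adjusted p = 0.0155), and ALDH6A1, methylmalonate semialdehyde dehydrogenase, by 0.44 ± 0.15 (adjusted p = 0.0283). The median over the 10 members was -0.18, and over all genes tested it was 0.00.

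With MLE 7 of the 25 fell after BDL (7.2% of all genes) and 0 rose (7.23% of all genes). ALDH6A1 fell by 0.62 ± 0.17 (adjusted p = 0.00638), SLC43A2, a transporter of large neutral amino acids, by 0.53 ± 0.11 (adjusted p = 0.000412), and KLF15 by 0.50 ± 0.16 (adjusted p = 0.0251). With SLE 3 fell (1.68% of all genes) and 0 rose (2.86% of all genes): HADHA by 0.50 ± 0.14 (adjusted p = 0.0282), MCCC1 by 0.42 ± 0.09 (adjusted p = 0.00411), and HADHB by 0.39 ± 0.11 (adjusted p = 0.0288). HADHA and HADHB form the mitochondrial trifunctional protein of beta-oxidation, and MCCC1 is a subunit of the leucine-route carboxylase. With the identifier block 1 fell with SLE and 9 with MLE. On plain totals 3 fell with SLE, and 2 fell and 1 rose with MLE. Not all of the falls named with MLE therefore kept their call on plain totals.

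Between PN and ENT sham pigs the other pathway genes split. SLE-sham had 6 of 25 higher (13.7% of all genes), led by MMAB (0.79 ± 0.16, adjusted p = 0.000105), SLC43A2 (0.69 ± 0.10, adjusted p = 1.02e-07), and HADHA (0.65 ± 0.14, adjusted p = 0.000197). It had 6 lower (13.8% of all genes), led by HSD17B10 (-0.67 ± 0.14, adjusted p = 0.000141), AUH (-0.66 ± 0.11, adjusted p = 4.13e-06), and ACAT1 (-0.57 ± 0.11, adjusted p = 8.95e-05). MLE-sham had 7 higher (10.7% of all genes), led by MMAB (0.91 ± 0.16, adjusted p = 2.96e-05), SLC43A2 (0.80 ± 0.10, adjusted p = 1.1e-08), and SLC7A5 (0.70 ± 0.24, adjusted p = 0.0266), and 3 lower (10.4% of all genes), AUH (-0.61 ± 0.11, adjusted p = 5.6e-05), HIBCH (-0.36 ± 0.08, adjusted p = 0.000498), and ACAT1 (-0.33 ± 0.12, adjusted p = 0.0357). MMAB prepares the cobalamin cofactor of methylmalonyl-CoA mutase, HSD17B10 and ACAT1 act late in the isoleucine route, AUH late in the leucine route, and HIBCH in the valine route. Without the near-identical pair the counts were 6 higher and 6 lower with SLE and 6 higher and 5 lower with MLE, and with the identifier block 4 and 8, and 4 and 6.

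In BDL pigs, SLE against ENT had 5 of the 25 genes higher (9.88% of all genes) and 3 lower (9.45%), and MLE against ENT had 4 higher (7.59%) and 5 lower (8.86%). Transcripts of SLC7A5 and SLC3A2, whose proteins form a heterodimer that imports large neutral amino acids, were higher with SLE and with MLE. SLC7A5 was higher by 0.73 ± 0.24 with SLE (adjusted p = 0.0235) and 1.09 ± 0.26 with MLE (adjusted p = 0.00153). SLC3A2 was higher by 0.72 ± 0.12 with SLE (adjusted p = 1.85e-05) and 0.70 ± 0.13 with MLE (adjusted p = 9.57e-05). Also higher were SLC43A2 with SLE (0.41 ± 0.10, adjusted p = 0.00186) and MCCC2 with MLE (0.42 ± 0.10, adjusted p = 0.00266). Lower were ACAT1, AUH, and HIBCH with SLE (-0.48 ± 0.11, -0.37 ± 0.11, and -0.23 ± 0.08) and MCEE, ACAT1, and ECHS1 with MLE (-0.83 ± 0.17, -0.47 ± 0.13, and -0.37 ± 0.11). These diet differences in BDL pigs are those of the fit with TMM on all libraries. Whether they kept their calls with the identifier block, without the near-identical pair, or on plain totals is not given here. Between the emulsions 0 of 25 were called in edgeR and in DESeq2, in sham and in BDL pigs. Of the interactions, edgeR called 0 of 25, and DESeq2 called 1 for SLE minus ENT.

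**Figure D3:**
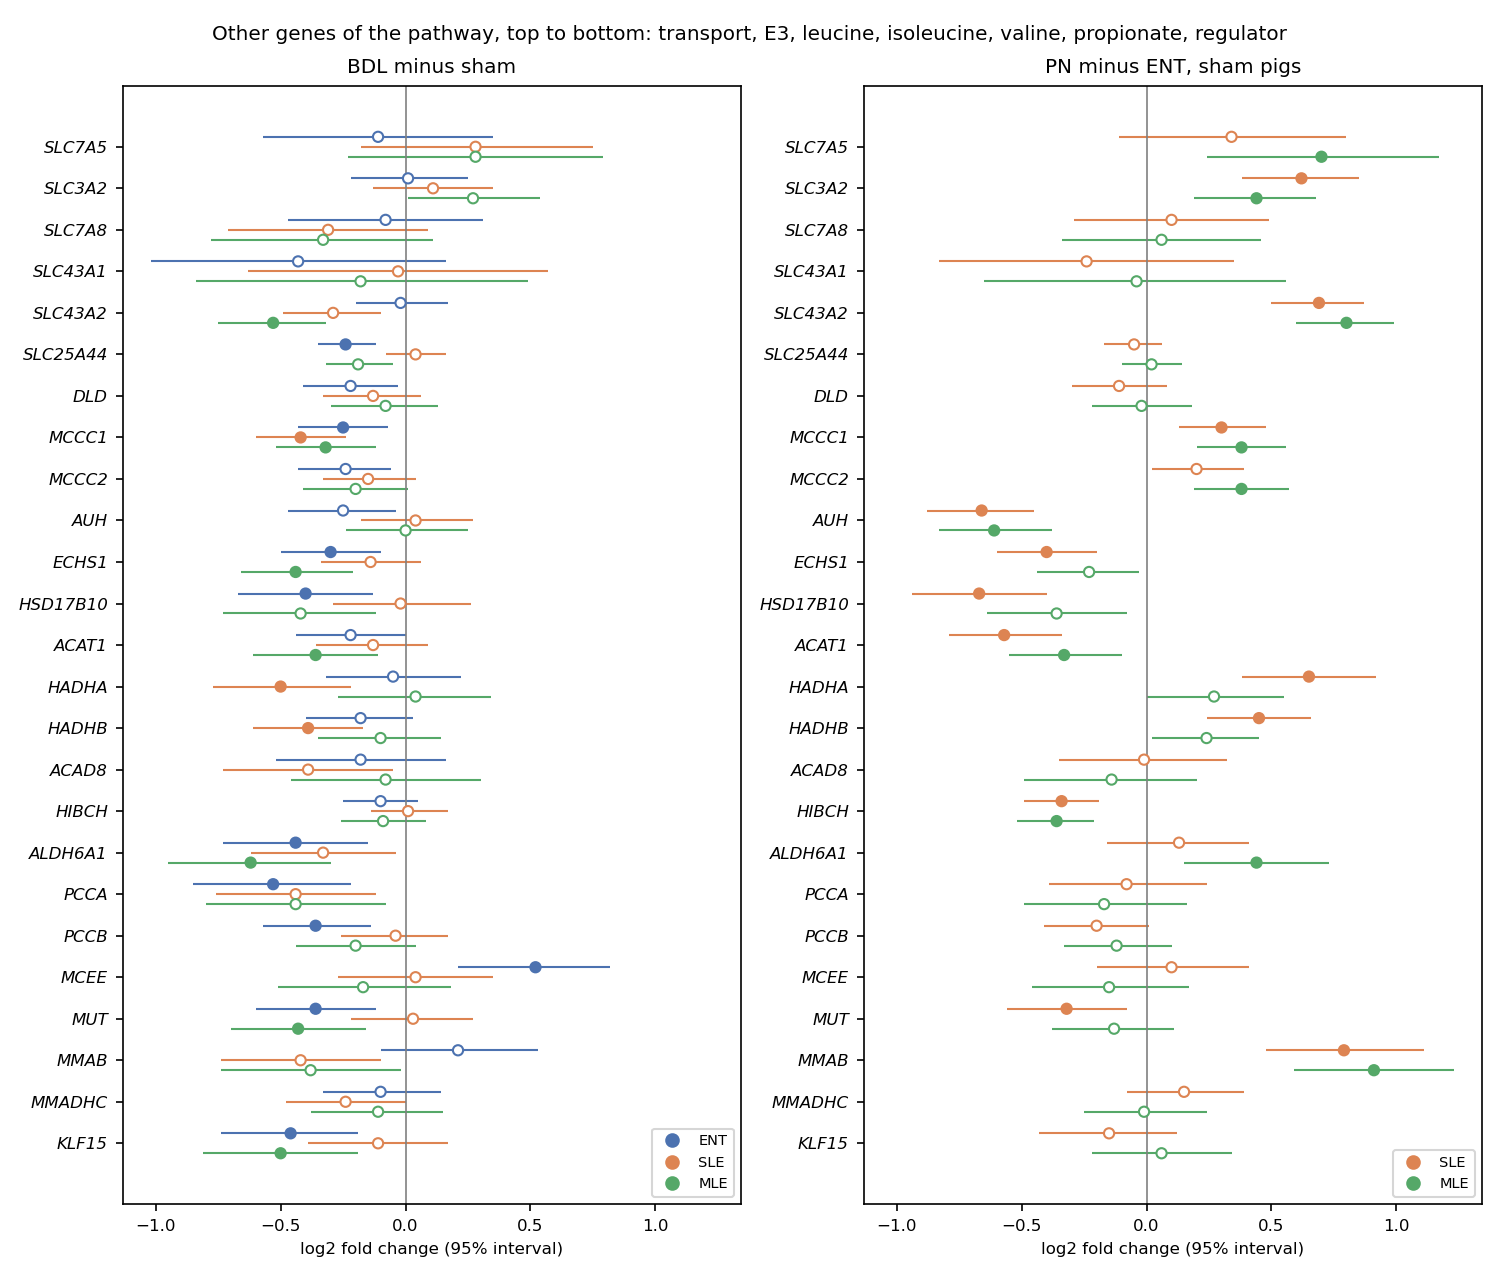
Log2 fold changes (horizontal axis) with 95% intervals of the 25 other tested genes of the pathway and its transport (vertical axis), for BDL against sham in each diet and for PN against ENT in sham pigs. Filled points have an adjusted p under 0.05; MMAB and SLC43A2 are the highest of the sham comparison with MLE, at 0.91 and 0.80.

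Markers of cell types moved with surgery in the same libraries. Of 7 cholangiocyte markers, which line bile ducts, 5 rose with BDL on ENT (6 without the near-identical pair), 1 on SLE (3 with the identifier block), and 6 on MLE, and of 7 hepatocyte markers 3, 0, and 4 fell. Summed hepatocyte markers had medians of 94202 CPM in ENT-sham and 56583 CPM in ENT-BDL pigs, 72493 and 62491 CPM with SLE, and 80254 and 50387 CPM with MLE. These sums were mostly ALB (a median of 71058 CPM in ENT-sham pigs), which fell by 0.83 ± 0.15 with ENT and by 0.79 ± 0.17 with MLE, and the median log2 difference of the 7 markers was -0.24, -0.07, and -0.56 on ENT, SLE, and MLE. With ENT, APOA1 and APOB were the other markers called lower, and TTR (-0.24), HNF4A (-0.08), SERPINA1 (0.16), and CPS1 (0.02) were not called. Summed cholangiocyte markers, of which CLDN4 was the most abundant over the 60 libraries, had medians of 127 CPM in ENT-sham (73.5 to 374) and 297 CPM in ENT-BDL pigs (228 to 416), 311 (221 to 382) and 363 CPM (265 to 453) with SLE, and 203 (173 to 244) and 347 CPM (245 to 454) with MLE. The highest ENT-sham sum was that of replicate 2, of the near-identical pair. Without the pair the highest ENT-sham sum was 203 CPM, below the lowest of ENT-BDL pigs at 228 CPM. Fewer cells of a type and less RNA per cell cannot be told apart in bulk tissue. The part of either in the lower BCAT2, BCKDHB, DBT, IVD, and HIBADH was not tested. Nor was the part of changed cell types in the higher BCAT1 and ACADSB after BDL.

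The other marker lists were counted in the same way. After BDL, 8.78% of all genes were higher and 8.66% lower on ENT. These shares were 2.86% and 1.68% on SLE, and 7.23% and 7.2% on MLE. Of 8 stellate and myofibroblast markers, with COL3A1 the most abundant, 2, 1, and 4 rose after BDL on ENT, SLE, and MLE, and the summed medians went from 1456 to 2782, from 2075 to 2393, and from 1849 to 4023 CPM. Of 8 macrophage markers (CD5L the most abundant) 1 rose in each diet and 2, 0, and 2 fell, and of 7 endothelial markers (STAB2 the most abundant) 2, 0, and 2 fell. Lymphocyte markers had 0, 0, and 1 of 6 tested lower, with at most 29.8 CPM summed, erythroid markers 0, 0, and 1 of 6 lower, with at most 237 CPM, and neutrophil markers 1 of 6 higher in each diet, with at most 56.2 CPM. CKM, the 1 muscle marker tested, was not called after BDL, but was higher on PN than on ENT in sham and BDL pigs. Other markers were also called between diets. Against ENT, 13.7% of all genes were higher and 13.8% lower with SLE in sham pigs, and 10.7% and 10.4% with MLE. In BDL pigs these shares were 9.88% and 9.45% with SLE, and 7.59% and 8.86% with MLE. A single call in a list of 6 to 8 markers is near these shares. Against ENT, in sham pigs, cholangiocyte markers were higher in 3 of 7 with SLE and 2 of 7 with MLE, and hepatocyte markers lower in 2 of 7 and 1 of 7. Macrophage markers were higher in 2 and 0 of 8 and lower in 1 and 1, endothelial markers lower in 2 and 0 of 7, erythroid markers lower in 1 and 1 of 6, and neutrophil markers higher in 1 and 0 of 6. In BDL pigs cholangiocyte markers were higher in 1 and 2 of 7, hepatocyte markers higher in 1 and 0 of 7 and lower in 1 and 1, endothelial markers lower in 0 and 1 of 7, lymphocyte markers lower in 1 and 0 of 6, neutrophil markers higher in 1 and 0 of 6, and erythroid markers lower in 0 and 4 of 6 (median log2 differences of -0.49 and -2.29). The part of these cells in the diet differences of BCAT1, BCAT2, DBT, PPM1K, IVD, and ACADSB was not tested.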

How the data were processed

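Liver poly-T selected RNA was sequenced in 60 libraries. The authors deposited gene counts without normalization; the submitters' processing notes name HISAT2 2.0.5, StringTie 1.3.3, featureCounts 1.5.0-p3, and Sscrofa11.1. The 24 features without a gene name (0.008% to 0.041% of a library) were left out. MS4A1, ACTA1, MYL1, and TNNT3 were too low to be tested. Coordinates are those of the deposited table. Its gene lengths were used only between genes.

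Groups came from the labels. All libraries entered 1 fit in edgeR 4.0.16 (R 4.3.3): filterByExpr, TMM (factors 0.849 to 1.19), estimateDisp, glmQLFit with robust=TRUE, and glmQLFTest, Benjamini-Hochberg adjusted over 16210 genes with a threshold of 0.05. CPM used TMM library sizes, and log2 CPM a prior count of 2. The edgeR and DESeq2 steps were tested on simulated data. Descriptions and figures were made in pandas 2.3.3, numpy 2.4.6, scipy 1.17.1, and matplotlib 3.10.9 under Python 3.11.15. R also held limma 3.58.1, on which edgeR depends.

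Alternatives were DESeq2 1.42.0, RLE factors, no filter, at least 10 counts in every library, only the groups compared, a 2-fold threshold, replicate and identifier blocks, single libraries or the near-identical ENT pair left out, plain library totals for levels, and, added after seeing the data, a fit on plain totals. Named genes were the 10 members, up to 3 other pathway genes per direction and comparison, and the 2 closest genes to each member. TF was on 2 rows and left out of the hepatocyte markers, MUT stands for MMUT, and MMAA and MB were not analysed here. Members and lists were chosen with earlier results of these data known. Each value carries the spread between pigs.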

Additional observations from a re-analysis of the deposited data

Results flagged for a closer look

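Groups of 4 to 10 libraries were searched for a highest or lowest value that stood apart from the rest, by Dixon's test at its 95% critical value. Of 40 such groups, 2 held one, and chance flags about 1 in 20. BCAT1 was at 45.6 CPM in MLE-sham replicate 6, against 16.7 to 25.5 CPM in the other MLE-sham libraries. Without that library, BCAT1 in MLE-BDL against MLE-sham had a log2 fold change of 1.01 (adjusted p = 1.14e-05), and MLE-sham against ENT-sham went from 0.29 to 0.12 (adjusted p = 0.606). BCKDHB was at 67.3 CPM in ENT-BDL replicate 5, against 37 to 52.9 CPM in the other ENT-BDL libraries, and without it the log2 fold change of ENT-BDL against ENT-sham was -0.46 (adjusted p = 0.00225).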

How the results depend on the processing

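Of 19 called differences among the 10 genes, 11 kept their call with DESeq2, RLE factors, both other filters, only the groups compared, both blocks, and without the near-identical pair or any single library, and 9 did so on plain totals as well. None of the 19 changed sign in these fits. Of 101 that were not called, 13 were called under some of these settings and 35 changed sign. The fit on plain totals was chosen after seeing the data. It ended 5 calls, HIBADH after BDL with ENT, BCAT2, DBT, and IVD after BDL with MLE, and ACADSB in MLE-BDL against ENT-BDL, and added 4, ACADSB after BDL with MLE, PPM1K in SLE-sham against ENT-sham, and PPM1K and HIBADH in MLE-BDL against ENT-BDL. After BDL with MLE it turned BCKDHA to 0.09, BCKDK to 0.16, and PPM1K to 0.11. At a 2-fold threshold the calls went to 0 in every comparison, ENT-BDL and MLE-BDL against sham, SLE-sham and MLE-sham against ENT-sham, and MLE-BDL against ENT-BDL included. Deviations from group means had a median r of -0.01 over 82 same-numbered replicate pairs of compared groups (-0.23 to 0.38), with r above 0.1 in 20. Pairs with different replicate numbers were not set beside them, so whether these numbers pair the libraries was not tested. With the replicate block, calls went from 0 to 1 for SLE-BDL against SLE-sham and from 2 to 1 for SLE-sham against ENT-sham. It also ended the calls of HIBADH after BDL with ENT (adjusted p = 0.0514) and of ACADSB in MLE-BDL against ENT-BDL, the last being lost with RLE factors and no filter too. With no filter SLE-sham against ENT-sham was also 1, DBT being lost, and with the identifier block SLE-BDL against ENT-BDL had 2. With 1 library left out, calls ranged from 0 to 1 for SLE-BDL against SLE-sham, from 1 to 3 for SLE-sham against ENT-sham, and from 0 to 1 for SLE-BDL against ENT-BDL. PPM1K after BDL with SLE, 0.02 in the main analysis, was -0.07 with the identifier block and -0.07 to 0.10 with 1 library left out. Without the near-identical ENT pair, r within groups moved to -0.26 for BCAT1 with DBT, 0.30 for BCAT1 with BCKDK, -0.23 for BCAT1 with ACADSB, 0.51 for BCKDHB with ACADSB, -0.13 for DBT with BCKDK, 0.01 for BCKDK with IVD, 0.41 for IVD with ACADSB, and 0.61 for ACADSB with HIBADH. Plain totals moved each group mean by less than 1 SD between pigs, but by up to 0.14 on the log2 scale. The cause of these shifts was not tested.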
